A study of Mus musculus with 8 samples.

Results

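The SOCS family of feedback inhibitors was followed in mouse wound skin: Socs1, Socs2, Socs3, Socs4, Socs5, Socs6, Socs7 and Cish. The 8 members were found by gene symbol in a table of 18540 genes, the family having been chosen with earlier results of these data known, and all 8 were present and passed the filter on low counts. Wound RNA was sequenced in a control group and in a group given ZCZ, 4 samples each. ZCZ is a nanocomposite of zinc peroxide and cerium oxide in a zinc imidazolate framework, and in the wound experiments of the study it was given as injections of 100 μg/kg at the wound edge and controls received PBS, and the tissue for sequencing came from wounds treated for 15 days.

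The samples are named here by group and by the number in their titles, which runs 1, 2, 3 and 5 for control and 1, 2, 4 and 5 for ZCZ. The labels give skin as the tissue and give no strain, sex or age. The methods describe wounds on C57BL mice of 6 weeks and on diabetic db/db mice of 10 weeks, which lack a working leptin receptor, and do not say which of these strains was sequenced. Each mouse carried a pair of wounds, and it is not stated which samples share a mouse, so the p-values measure only the spread between these samples. The total per sample lay between 28856790 and 38974888 counted reads.

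Cytokines such as interleukin 6, interferons and growth hormone bind receptors that activate Janus kinases (JAKs), and these phosphorylate STAT transcription factors. Among the genes that STATs switch on are Socs1, Socs2, Socs3 and Cish, whose proteins bind the receptor or the kinase and dampen the signal that induced them. SOCS proteins share an SH2 domain, which binds phosphorylated tyrosine, and a SOCS box, which recruits a ubiquitin ligase, and in skin SOCS3 is known as a brake on interleukin 6 family signalling in keratinocytes and infiltrating leukocytes.

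STAT dimers bind palindromes of the form TTCNNNGAA, where N is any base. The search read both strands, since the motif is its own reverse complement, over 250 bases before and 50 bases after the start of each gene in RefSeq's mouse promoters (GRCm38.p6). Of 32851 promoters of this length, 8.30% held the motif. Entries matched for 4 of the 8 members: Socs1, Socs3, Socs4 and Cish. Socs3 held 1 match, from position -154 to -146, and Cish held 2, at positions 1 to 9 and 12 to 20 counted from the start in that table. Socs1 and Socs4 held 0 matches, which says only that these letters are not in this window. A form with 1 more base in the spacer, TTCNNNNGAA, was present in 6.95% of the promoters and in 0 of these 4. The stretches with a match are shown for the induced member that changed most and for an induced member that did not pass the test, with the motif in capitals. The Socs3 stretch is chr11:117969471-117969560 on the minus strand and the Cish stretch is chr9:107296654-107296683 on the plus strand.
Socs3: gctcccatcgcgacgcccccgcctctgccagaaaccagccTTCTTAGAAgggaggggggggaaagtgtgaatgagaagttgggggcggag
Cish: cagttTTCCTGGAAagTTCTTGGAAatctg
A match is a description of the letters and was not tested as a binding site.

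Socs3 and Socs2 were lower in ZCZ-treated wounds, and no member passed the test as higher. Of the 8 members, 2 passed edgeR's quasi-likelihood test at an adjusted p under 0.05 as lower, against 3.85% of the 15147 genes tested, and 0 passed as higher, against 4.28%. At an unadjusted p under 0.05, 4 members were lower and 0 higher, against 15.2% and 12.8% of all genes tested. DESeq2 called 3 as lower (Socs2, Socs3 and Socs6) and 0 as higher, against 10.2% and 7.96%. In simulated data DESeq2 called 47 unchanged genes and edgeR 10, and a call by DESeq2 alone is read with caution here and below. The simulation used dispersions estimated by edgeR and had no structure among samples, so it does not rank the 2 tools on these data. The log2 fold change of ZCZ against control was below 0 for 6 of the 8 members, and for 48.9% of all genes tested. Its median was -0.30 over the members and 0.01 over all genes tested. The control and ZCZ ranges did not overlap for 3 members, Socs2, Socs3 and Socs6, with every ZCZ sample below every control sample, and this held for 8.82% of the genes tested. No member had every ZCZ sample above every control sample, which 8.45% of the genes tested had. With a log2 fold change under -1 added to the call, 1 member remained, Socs3, against 1.25% of the genes tested.

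**Figure D1:**
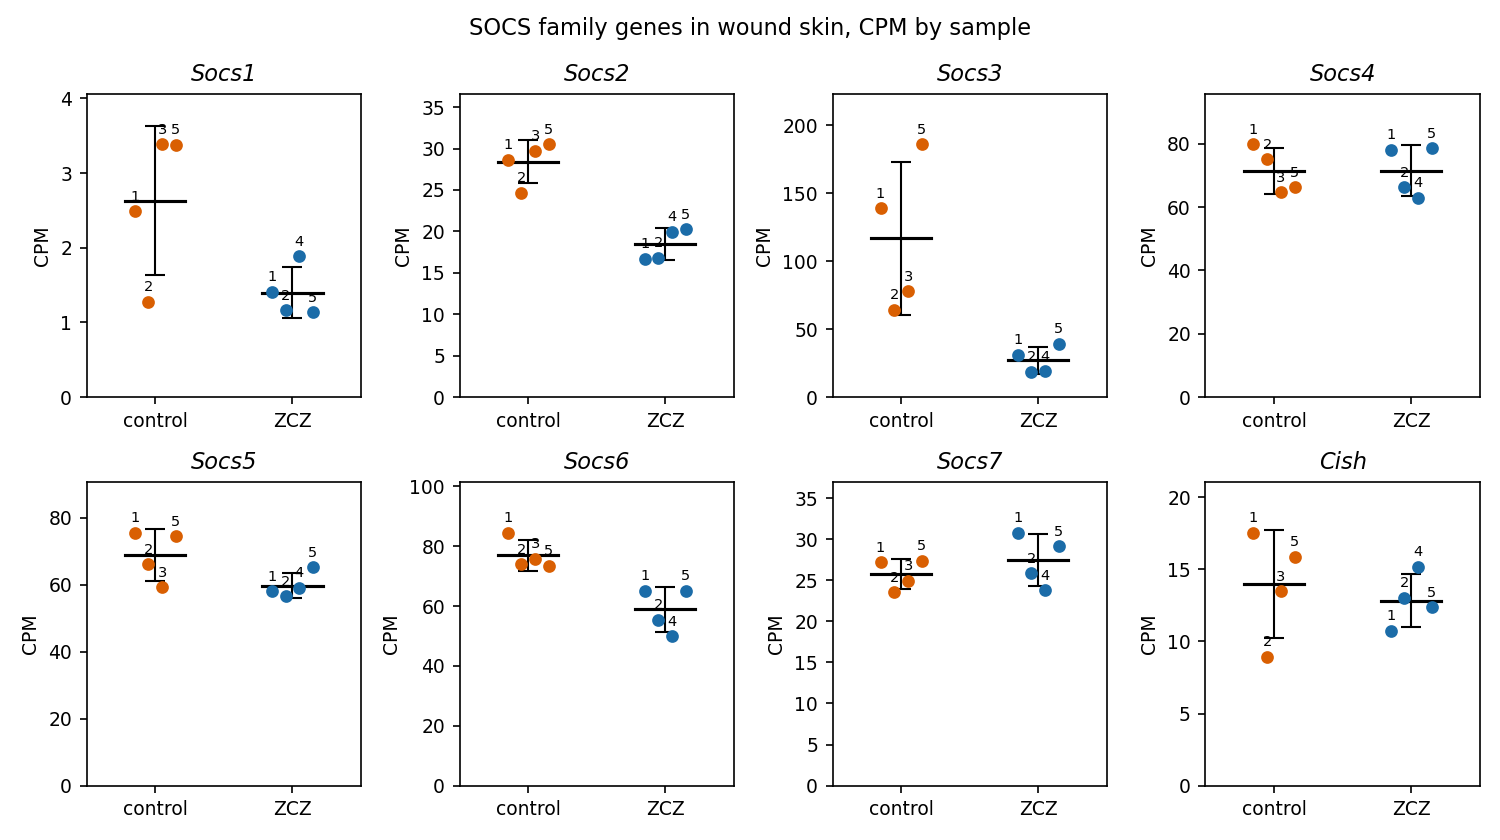
CPM, the counts scaled to a common library size, of the 8 SOCS family genes, 1 panel per gene, with control samples in orange, ZCZ samples in blue, sample numbers above the points, and the mean with its SD as bar and whiskers. The ZCZ samples lie below all control samples for Socs2, Socs3 and Socs6, and the groups overlap for the other 5 genes.

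Socs3 encodes the member that binds gp130, the shared receptor chain of the interleukin 6 family, and inhibits JAK kinases through a kinase inhibitory region. It was at 139 CPM (counts scaled to a common library size by the TMM method) in control-1, 64.4 in control-2, 77.9 in control-3 and 186 in control-5. It was at 31.3 CPM in ZCZ-1, 18.8 in ZCZ-2, 19.1 in ZCZ-4 and 39.4 in ZCZ-5. Control-1 and control-5 were the high samples, and the lowest control sample was still above the highest ZCZ sample. The mean fell from 117 ± 56.5 CPM in control to 27.2 ± 10.02 CPM in ZCZ (SD, n = 4 each). This is a log2 fold change of -2.11 (SE 0.38, 95% interval -2.96 to -1.25, edgeR adjusted p = 0.0299), or a level 4.30 times higher in control, with an interval from 2.38 to 7.78. Only 59 of the 15147 genes tested had a log2 fold change as low or lower. In bulk tissue, fewer cells that express a gene and less of its RNA per cell cannot be told apart.

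Socs2 encodes the member best known for restraining growth hormone signalling, and STAT5 induces it. It was at 28.7 CPM in control-1, 24.7 in control-2, 29.7 in control-3 and 30.5 in control-5. In ZCZ-1 it was at 16.7 CPM, in ZCZ-2 at 16.8, in ZCZ-4 at 19.96 and in ZCZ-5 at 20.2. The samples of each group lay close together, and the groups did not overlap. The log2 fold change was -0.62 (SE 0.11, 95% interval -0.87 to -0.38, edgeR adjusted p = 0.0299). Control samples varied far less for Socs2, with a coefficient of variation of 9.17%, than for Socs3, with 48.3%, and the smaller change of Socs2 had a smaller p than that of Socs3 (0.000284 and 0.000321).

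The calls of Socs3 and Socs2 rested on each of 4 samples. Without control-5, ZCZ-1, ZCZ-2 or ZCZ-4 the adjusted p of Socs3 was between 0.0661 and 0.0891 and that of Socs2 between 0.0665 and 0.0903, and in those 4 fits edgeR called 0 genes in the whole table, while between 3100 and 4208 genes had an unadjusted p under 0.05.

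Socs1 encodes the strongest inhibitor of interferon signalling in the family. It was the least abundant member, with 46 to 123 counts in control samples and 41 to 75 in ZCZ samples. Its level was 2.49 CPM in control-1, 1.28 in control-2, 3.39 in control-3 and 3.38 in control-5, and in ZCZ samples it lay between 1.14 and 1.88 CPM. Control-2 lay within the ZCZ range, so the groups overlapped. The log2 fold change of -0.91 (SE 0.34, 95% interval -1.66 to -0.15) did not pass over all genes (edgeR adjusted p = 0.117, unadjusted p = 0.0233).

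Cish, like Socs2 a STAT5-induced gene, encodes an inhibitor of interleukin 2 and growth hormone family receptors. It was highest in control-1 at 17.6 CPM and lowest in control-2 at 8.94, with control-3 at 13.5 and control-5 at 15.9, and lay between 10.7 and 15.2 CPM in the ZCZ samples. All 4 ZCZ samples lay inside the control range. The log2 fold change was -0.12 with a 95% interval from -0.58 to 0.34 (edgeR adjusted p = 0.738), so changes of either sign within that interval could not be told from none at this spread.

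The other 4 members, Socs4 to Socs7, are not known mainly as STAT-induced genes, and Socs4 and Socs5 have been tied to the receptor of epidermal growth factor. Socs6 was highest in control-1 at 84.6 CPM, with control-2 at 74.0, control-3 at 75.8 and control-5 at 73.4, and at 65.1, 55.4, 49.9 and 65.2 CPM in ZCZ-1, ZCZ-2, ZCZ-4 and ZCZ-5. The groups did not overlap, and the log2 fold change of -0.39 (SE 0.11, 95% interval -0.63 to -0.14) missed the threshold by edgeR (adjusted p = 0.0579). DESeq2 gave the same gene an adjusted p of 0.0127, and edgeR gave 0.0432 without ZCZ-5. Socs5 lay between 59.3 and 75.5 CPM in control and between 56.6 and 65.2 in ZCZ, with a log2 fold change of -0.20 (95% interval -0.43 to 0.02, edgeR adjusted p = 0.215). Socs4 had nearly equal means of 71.5 CPM in both groups, and the interval of its log2 fold change ran from -0.25 to 0.25. Socs7, whose protein is known to bind insulin signalling adaptors, lay between 23.6 and 27.4 CPM in control and between 23.8 and 30.8 in ZCZ, with an interval from -0.15 to 0.33. For Socs4 and Socs7 these intervals leave out a 2-fold change in either direction, and smaller changes were not resolved.

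**Figure D2:**
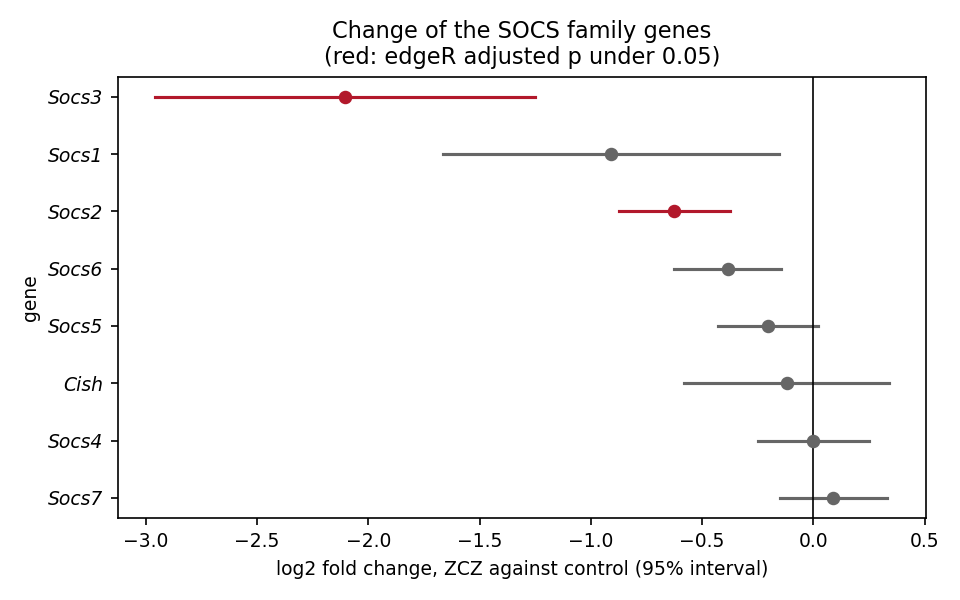
Log2 fold change of ZCZ against control for each SOCS family gene, with the 95% interval as a line and genes with an edgeR adjusted p under 0.05 in red. Socs3 (-2.11) and Socs2 (-0.62) are in red, and the intervals of Socs4, Socs5, Socs7 and Cish cross 0.

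Levels of different members were compared as CPM per kilobase of exon, with the union of each gene's exons in GENCODE's mouse annotation as its length. In control wounds Socs3 was highest, at 40.4 ± 19.5 CPM per kilobase (SD, n = 4), and it ranked first in all 4 samples. Socs5 (10.7 ± 1.19) and Socs4 (10.4 ± 1.05) followed with ranges that overlapped, and below them stood Socs6 (6.78 ± 0.456), Socs7 (3.55 ± 0.255), Socs2 (2.98 ± 0.273), Cish (2.17 ± 0.583) and Socs1 (0.905 ± 0.343). Of the other neighbours in this order, Socs2 and Cish had ranges that overlapped.

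In ZCZ wounds Socs3 no longer stood apart from the other members. Socs4 (10.4 ± 1.18 CPM per kilobase), Socs3 (9.39 ± 3.47) and Socs5 (9.31 ± 0.588) had ranges that overlapped. Socs3 made up between 38.6% and 62.7% of the summed level per kilobase of the 8 members in control samples and between 17.3% and 27.6% in ZCZ samples. With the longest transcript as the length these shares were 34.1% to 57.7% and 15.005% to 24.3%, and the order of the means changed. Socs2 stood above Socs7 in both groups, though in 3 of 4 samples in ZCZ, and Socs6 stood above Socs4 in control only. In ZCZ Socs5 (12.8 CPM per kilobase) stood first, above Socs3 (10.6), and Socs3 lay below Socs6 in ZCZ-2 and ZCZ-4. The exon unions of Socs2 and Socs6 are 9531 and 11349 bases long, and their longest transcripts 4242 and 6036.

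**Figure D3:**
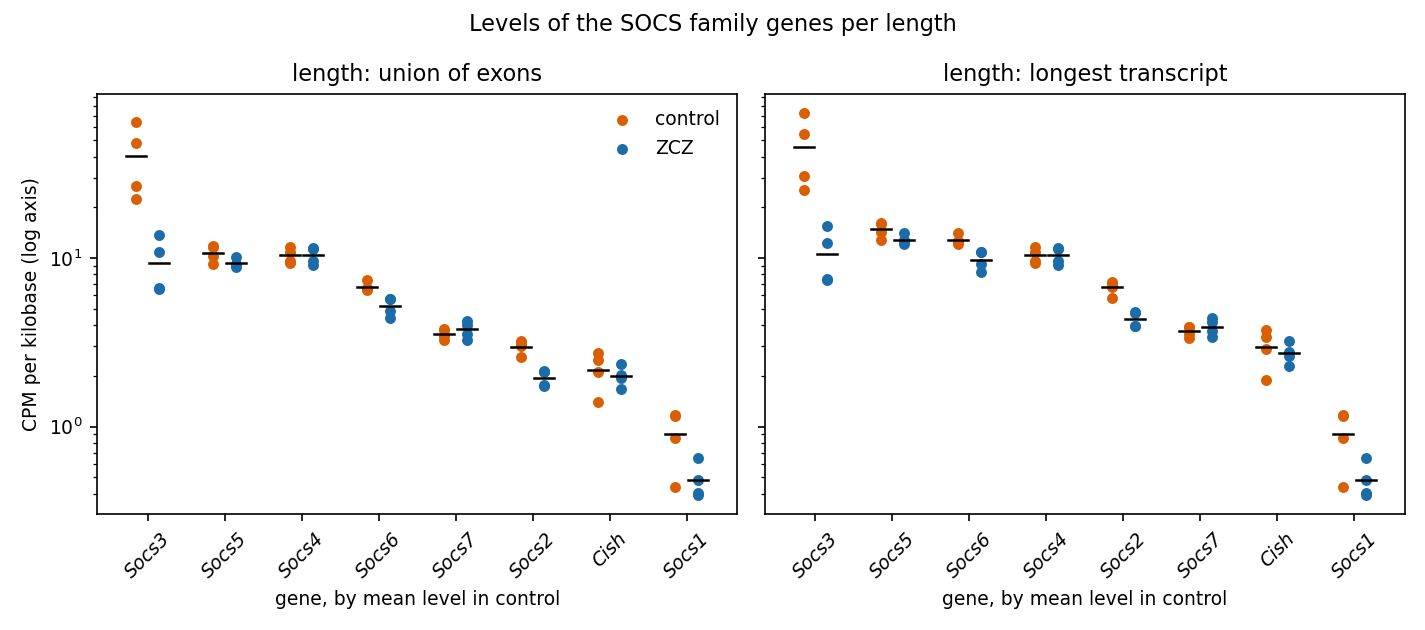
CPM per kilobase on a log axis for the 8 SOCS family genes, ordered by their mean in control, with control samples in orange, ZCZ samples in blue and means as bars, for 2 definitions of gene length. Socs3 stands above all other members in control and among Socs4 and Socs5 in ZCZ under both definitions.

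The other genes of the pathway were described with 9 lists, which were chosen with earlier results of these data known and were not tested as sets. They held 140 genes, of which 122 were tested: 18 passed the test as lower (14.8%, against 3.85% of all genes tested) and 0 as higher, 90 had a log2 fold change below 0 (73.8%, against 48.9%), and the median was -0.32, against 0.01. DESeq2 called 34 of them as lower and 0 as higher (10.2% and 7.96% of all genes), and at an unadjusted p under 0.05 edgeR had 50 lower and 1 higher (15.2% and 12.8% of all genes). Without control-5, ZCZ-1, ZCZ-2 or ZCZ-4 edgeR called 0 of the list genes as lower, and without control-2 it called 5, in a fit that called 123 genes in the whole table against 1231 with all samples. The kinases and transcription factors that SOCS proteins restrain had 2 of 10 genes lower, Jak2 (log2 fold change -0.93, edgeR adjusted p = 0.0303) and Stat3 (-0.77, adjusted p = 0.0337), with a median of -0.51. All 10 had a log2 fold change below 0, DESeq2 called 7 as lower, and 8 were lower at an unadjusted p under 0.05. Of the 14 STAT3 target genes, 5 were lower, with a median of -1.17, among them Bcl3 (-1.37), a cofactor of NF-kappaB, Lcn2 (-2.18), which encodes an iron-sequestering protein, Osmr (-1.38), the oncostatin M receptor, and Cebpd (-1.32), a transcription factor. The fifth was Il4ra, a receptor gene that also stands in the lists of STAT6 targets and of receptors, so its 1 call is counted in all 3. Socs3 is itself a classical STAT3 target and its log2 fold change of -2.11 was near that of Lcn2.

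Il2ra (-1.15), a chain of the interleukin 2 receptor, was the 1 gene lower of 8 STAT5 targets (12.5%, against 3.85% of all genes tested). The median of the 8 was -0.18. This list was mixed, with 5 genes below 0 (48.9% of all genes). By edgeR 3 were lower and 1 higher at an unadjusted p under 0.05 (15.2% and 12.8% of all genes). Every ZCZ sample lay below every control sample for 2 and above for 2 (8.82% and 8.45% of all genes). Il4ra was the 1 gene lower of 14 STAT6 targets (7.14%, median -0.30). DESeq2 called 8 of the STAT3, 2 of the STAT5 and 1 of the STAT6 targets as lower (10.2% of all genes). The lists were not tested against each other. Cish, which STAT5 induces, had a log2 fold change of -0.12, close to the median of that list, and Socs2 one of -0.62.

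Ligands that induce SOCS genes were uneven among the control samples. Of 29 listed ligands 26 were in the table and 15 were tested. Of these 15, 3 were lower by edgeR (20%, against 3.85% of all genes tested). At an unadjusted p under 0.05, 10 were lower, and DESeq2 called 7 (15.2% and 10.2% of all genes). The 3 were Il6 (log2 fold change -5.51, edgeR adjusted p = 0.0356), Il11 (-3.86, adjusted p = 0.0449) and Csf3 (-4.32, adjusted p = 0.0484). All 3 signal through STAT3. Il6 was at 174 CPM in control-1, 5.19 in control-2, 7.49 in control-3 and 150.1 in control-5, and between 0.728 and 3.47 CPM in the ZCZ samples. The summed level of the listed ligands was 343 CPM in control-1 and 404 in control-5, and it was 51.9 in control-2 and 48.5 in control-3, close to the 40.1 to 49.3 CPM of the ZCZ samples. The control samples with high ligand sums were the ones with the highest Socs3. Single ligands within the sum differed in pattern: Lep, named here after its values were seen, was at 6.30 CPM in control-2 and 4.77 in control-3 and between 10.8 and 18.2 CPM in the ZCZ samples, whereas Il6 was above every ZCZ sample in all 4 control samples. The part of the ligands in the difference of Socs3 was not tested.

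**Figure D4:**
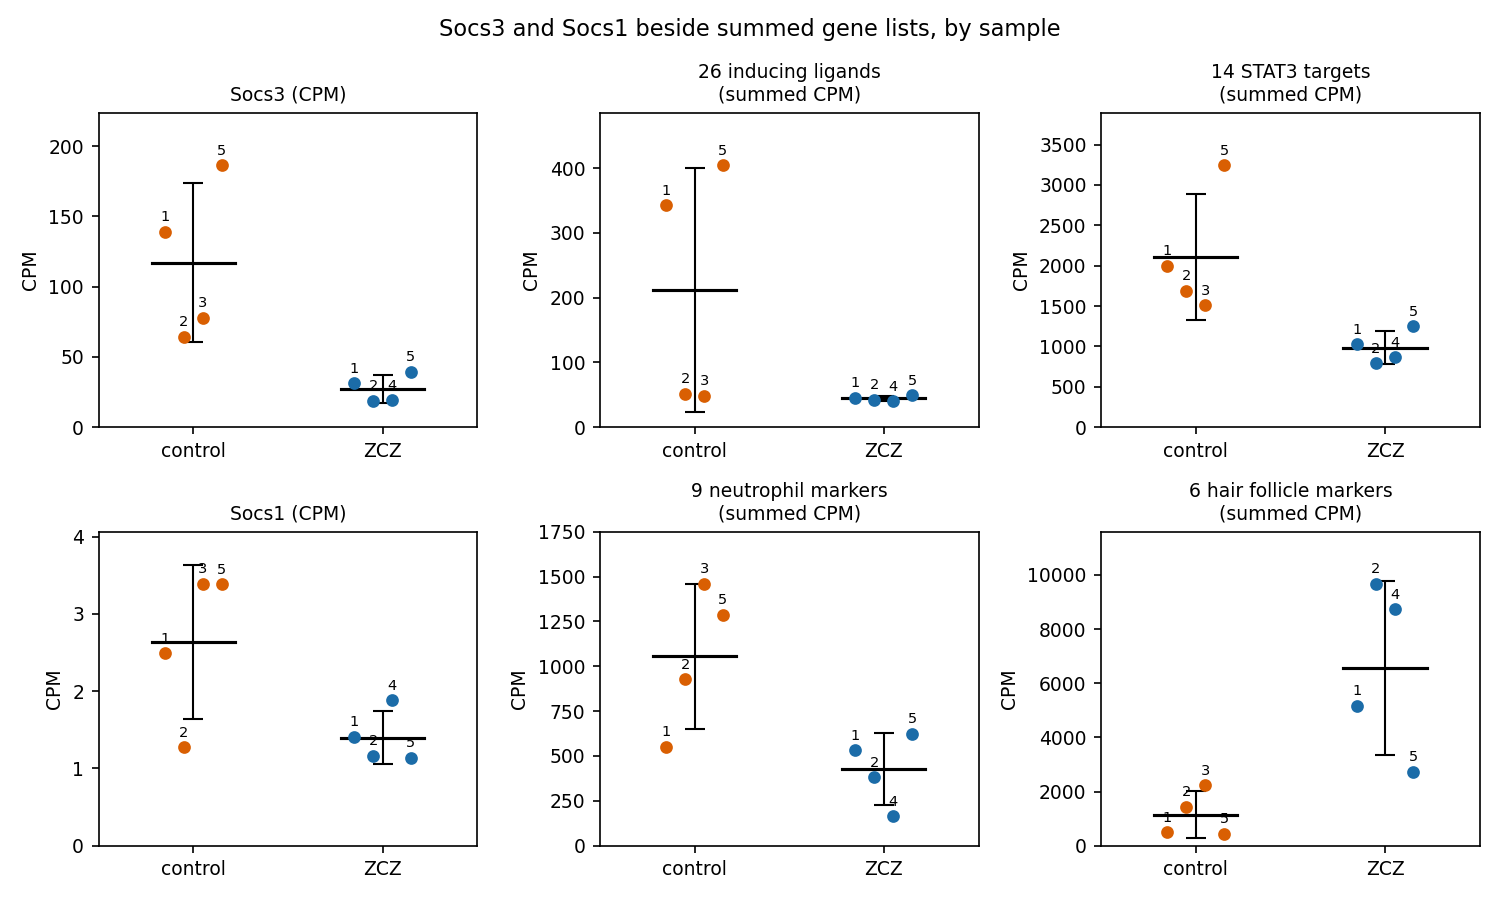
Socs3 and Socs1 in CPM beside summed CPM of gene lists, with control samples in orange, ZCZ samples in blue, sample numbers above the points, and the mean with its SD. Control-1 and control-5 are highest for Socs3 and for the summed ligands, and the ZCZ samples lie above all control samples for the summed hair follicle markers.

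Among receptors that SOCS proteins restrain, 4 of 19 tested genes were lower (21.1%, against 3.85% of all genes tested), with a median of -0.29. Lower were Ifnar2 (-0.68) and Ifngr1 (-0.38), chains of the interferon receptors, and Il4ra (-1.36), the interleukin 4 receptor. Csf2rb (-1.11), the shared beta chain of the GM-CSF receptor, was lower too. At an unadjusted p under 0.05 edgeR had 9 of the 19 lower, and DESeq2 called 5. Other inhibitors of JAK-STAT signalling had 0 of 12 genes called by edgeR in either direction (2 lower at an unadjusted p under 0.05 and 1 by DESeq2) and a median of -0.19, and the abundant phosphatases Ptpn11 and Ptprc had log2 fold changes of 0.07 and -0.43. The list of ubiquitin ligase genes drawn up around the SOCS box had 0 of 11 genes called by edgeR (1 lower at an unadjusted p under 0.05 and 1 by DESeq2) and a median of -0.05. Eloc, which binds the SOCS box, was at 0.04, and Arih1, a separate ubiquitin ligase, at -0.15. Of 23 tested genes for other proteins with a SOCS box, 4 were lower (17.4%), with a median of -0.26. The 4 were Spsb1 (-1.36), Asb5 (-1.22), Asb1 (-0.55) and Wsb1 (-0.49). At an unadjusted p under 0.05 edgeR had 6 of the 23 lower, and DESeq2 called 4. Of all genes tested, 3.85% were lower by edgeR's call, 15.2% at an unadjusted p under 0.05 and 10.2% by DESeq2. The shares that were higher were 4.28%, 12.8% and 7.96%.

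**Figure D5:**
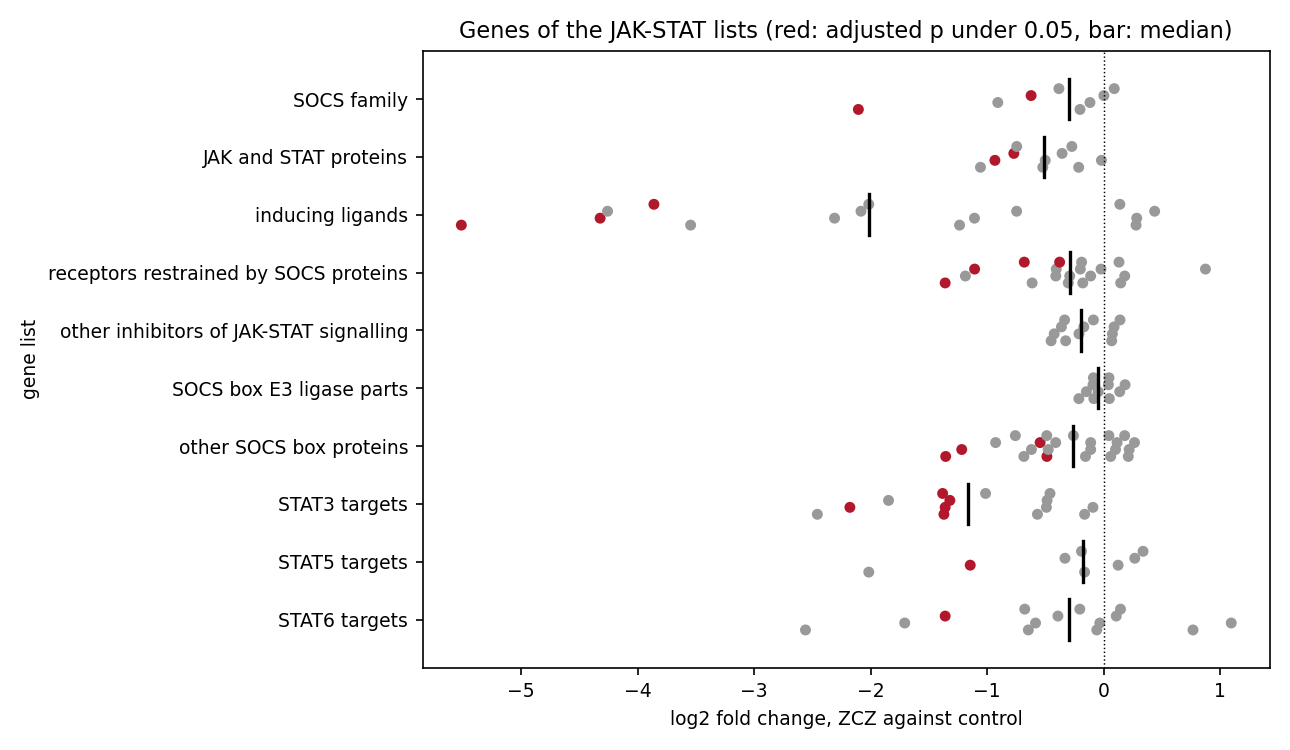
Log2 fold change of ZCZ against control for each tested gene of the SOCS family and of the 9 JAK-STAT lists, 1 row per list, with genes at an edgeR adjusted p under 0.05 in red and the median of each list as a bar. The medians lie at -2.02 for the ligands, -1.17 for the STAT3 targets and -0.05 for the ubiquitin ligase parts.

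The genes most like Socs3 over the 8 samples, by Pearson correlation of log2 CPM, were Plaur (r = 0.997), the receptor of urokinase, Bach1 (0.995), a transcription factor, and Thbs1 (0.993), thrombospondin 1. Those most like Socs2 were Dnajb5 (0.987), Gpr171 (0.985) and F2r (0.982), the thrombin receptor. All 6 were lower in ZCZ, and the group difference is part of each correlation. With the group means taken out, r with Socs3 was 0.989 for Plaur, 0.976 for Bach1 and 0.976 for Thbs1. With Socs2 it was 0.908 for Dnajb5, 0.942 for Gpr171 and 0.869 for F2r. The 6 genes were picked by their correlation over the same samples.

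RNA levels of some cell type markers differed between the groups, and bulk RNA does not tell cell number from RNA per cell. Of all genes tested, edgeR called 3.85% as lower and 4.28% as higher. At an unadjusted p under 0.05 these shares were 15.2% and 12.8%, and by DESeq2 they were 10.2% and 7.96%. Hair follicle markers were higher in ZCZ for 6 of 6 genes and summed to between 438 and 2231 CPM in control and between 2726 and 9669 in ZCZ, and skeletal muscle markers, 3 of 10 lower by edgeR (6 at an unadjusted p under 0.05 and 5 by DESeq2), summed to 3631 to 6810 and 3087 to 3490 CPM. Neutrophil markers had 0 of 7 tested genes called by edgeR (3 lower at an unadjusted p under 0.05 and 2 by DESeq2). Ly6g and Elane were not tested. The log2 fold change was below 0 for 6 of the 7, and that of Camp was 0.38. The neutrophil markers summed to 551 to 1459 CPM in control and 165 to 624 in ZCZ, ranges that overlap. S100a8 and S100a9 made up most of this sum, at 526 and 874 CPM in control-3 and 65.1 and 88.8 in ZCZ-4. Macrophage markers, 0 of 7 called by edgeR (3 lower at an unadjusted p under 0.05 and 0 by DESeq2), summed to 1867 to 2394 and 1286 to 2027 CPM, and fibroblast markers, 2 of 6 lower by edgeR (6 at an unadjusted p under 0.05 and 6 by DESeq2), to 54834 to 78015 and 43054 to 60493. Epidermis, T cell, mast cell, endothelium and adipocyte markers had 0 genes called by edgeR and sums that overlapped between the groups. At an unadjusted p under 0.05, 3 of 6 endothelium and 3 of 4 adipocyte genes were lower. Of 6 T cell genes, 1 was higher at that threshold. DESeq2 called 2 endothelium, 2 adipocyte and 1 T cell gene in the same directions. ZCZ-2 and ZCZ-4, the samples with the lowest Socs3, had the highest hair follicle sums. The same samples had the lowest neutrophil, macrophage, endothelium and fibroblast sums of all samples. The part of these markers in the change of Socs3 and Socs2 was not tested.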

How the data were processed

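The wound skin of 4 control and 4 ZCZ samples was sequenced after ribosomal RNA depletion, with random primers and dUTP in the second strand. The values are whole-number counts per gene that the authors deposited unnormalized, in 1 table of 18540 genes with their own annotation columns. The aligner, counting program, genome build and strand setting are not given in the sources used here, so reads of overlapping antisense genes cannot be told apart. RNA was extracted with Trizol according to the labels and with a TIANGEN tissue kit according to the methods. Groups came from the sample titles, which do not give the ZCZ composition; the study draws the sequenced treated samples as Z1C2Z, the form with more cerium oxide. The table held 0 unused columns of per-sample values. Totals lay between 28856790 and 38974888 counts, and a gene with as few counts as Socs1 (at least 41 per sample) carries more counting error than the other members.

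The analysis used edgeR 4.0.16 under R 4.3.3 (with limma 3.58.1 as its base): filterByExpr (15147 genes), TMM scaling, the quasi-likelihood test without covariates and Benjamini-Hochberg adjustment over all genes tested. The call was an adjusted p under 0.05. Log2 CPM used a prior count of 2. The steps were tested on simulated data of 15147 genes, with 200 changed by a log2 fold of 2 in either direction. There edgeR recovered 185 and called 10 unchanged genes, and DESeq2 recovered 189 and called 47. Replicates differed by more than counting noise in every pair (chi-square per degree of freedom at least 21.7). Alternatives were DESeq2 1.42.0, RLE size factors, 2 other filters, the sample number as a block, each sample left out, ZCZ-2 and ZCZ-4 left out, and a fold change of 2.

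The members, the lists and the named genes were chosen with earlier results of these data known. Named are the 8 members, up to 4 called genes per list by smallest p (or 2 by highest mean CPM where none was called), and the 3 genes most correlated with each called member. Marker lists are given by their sums. Promoter sequences came from RefSeq and gene lengths from GENCODE. Of the lists and genes selected, 1 list and 1 further gene are not reported here.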

Additional observations from a re-analysis of the deposited data

How the results depend on the processing

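Over 14 alternatives Socs1, Socs2, Socs3, Socs5 and Socs6 stayed below 0 and Socs7 above 0. Leaving out each sample in turn moved the log2 fold change of Socs3 between -2.34 and -1.78, of Socs2 between -0.69 and -0.57, of Socs6 between -0.44 and -0.32, of Socs4 between -0.049 and 0.055 and of Cish between -0.28 and 0.0042. The ZCZ samples were spread along the first principal component of log2 CPM, the main axis of variation, with 62.2% of the variance. ZCZ-2 and ZCZ-4 lay at 65.7 and 67.7, ZCZ-1 at 28.1 and ZCZ-5 at -0.29, and control samples between -62.9 and -12.2. Without ZCZ-2 and ZCZ-4, Socs3 was at -1.73 and Socs2 at -0.62 (edgeR adjusted p = 0.28 for both). In that fit 0 members and 0 list genes passed, with 0 genes called in the whole table and 1980 at an unadjusted p under 0.05. DESeq2 called Socs6 (-0.39) and 34 list genes as lower. Socs4 turned to -0.0069 with DESeq2 and -0.0070 with RLE size factors. The sample number as a block left Socs2 at -0.64 (edgeR adjusted p = 0.0799) and 1 member called, Socs3. With the block Socs3 was at -2.06 (SE 0.16, edgeR adjusted p = 0.0022), against an SE of 0.38 and an adjusted p of 0.0299 without it. Only the numbers 1, 2 and 5 occur in both groups. Samples with other numbers therefore did not bear on the log2 fold changes of that fit. Deviations of same-numbered samples correlated at r = -0.101, -0.0623 and 0.323 for numbers 1, 2 and 5. Other pairs of a control and a ZCZ sample lay between -0.409 and 0.387. Neither these values nor the titles settle whether the numbers mark pairs, and they were not taken as such. The fit with the block, whose difference rests on the samples numbered 1, 2 and 5, called 554 genes against 1231. With a fold change of 2 in the call, 1 member and 12 list genes were lower. With 1 sample left out, between 0 and 3 members and between 0 and 23 list genes were lower, and between 0 and 2 list genes were higher. The cause of these shifts was not tested.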
